A study of Homo sapiens with 8 samples.

Results

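The subject was the genotype difference in the 4-OHT response: for each gene, the log2 change from the libraries without to the libraries with 4-OHT was taken within each clone, and the mean change of the SNORA13 knockout (KO) clones was compared with that of the wild-type (WT) clones. A gene entered if it was listed in both deposited tables, which held for 10685 of 11940 genes, and 8666 of these had enough reads to be tested. All cells were BJ-HRAS, a derivative of BJ, an established line of human skin fibroblasts, and ribosome footprints were sequenced from WT clones 15 and 54 and from KO clones 66 and 69. Each clone gave 1 library without 4-hydroxytamoxifen (4-OHT) and 1 after 7 days of 100 nM 4-OHT, so the 4 groups held 2 libraries each and 8 in all. The WT cells, too, were BJ-HRAS clones, and the labels do not state the promoter or form of HRAS. Each genotype rests on 2 independent clones, so that a difference between genotypes and one between these clones cannot be told apart. All libraries with 4-OHT stand in one table and all without it in the other. A shift common to all 4 libraries of a table cancels in the difference of differences, and one that differs between clones does not.

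SNORA13 belongs to the H/ACA box small nucleolar RNAs, which as a class guide the conversion of uridine to pseudouridine in ribosomal RNA. Oncogenic HRAS signalling drives fibroblasts into senescence, a lasting growth arrest in which the p53 pathway is engaged, many secreted inflammatory factors are made and matrix production is altered. 4-OHT is an active metabolite of tamoxifen that binds estrogen receptors. The study's title names ribosome biogenesis and senescence, and this comparison asks where loss of SNORA13 goes with another response to 4-OHT. Footprints count ribosomes on mRNA, and mRNA levels were not analysed here, so a change in mRNA amount and a change in its translation cannot be told apart, nor can fewer cells making a transcript and less of it per cell.

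Recovered reads per library ranged from 597096 to 1741135 in 7 libraries and were 192159 in KO clone 66 with 4-OHT, which also listed the most genes at 0 (3169 of 11079). Levels of SNORA13, of its host EPB41L4A-AS1 and of HRAS were not analysed here, so the knockout and its labels were not checked. All 12 fibroblast markers were measured; together they took 6.16% to 7.84% of footprints without and 2.67% to 3.19% with 4-OHT. Of the markers of epithelial cells 2 of 10 were listed in both tables, of keratinocytes 2 of 10, of endothelium 2 of 9, of leukocytes 2 of 11 and of melanocytes 1 of 7. No marker list of another cell type took more than 0.0401% of footprints in any library. The RefSeq spans of several genes described here overlap another gene, among them THBS1 (FSIP1), TAGLN (PCSK7), FN1 (ATIC), ASNS (a readthrough gene), MTHFD2 (SLC4A5), SMAGP (DAZAP2), MAB21L1 (NBEA) and CCN2 and BHLHE40 (antisense genes), and whether counting used strand is not given in the sources used here, so reads of such partners cannot be told apart.

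The main test called no gene as different between the genotypes, while a test that weights values by read depth, limma-voom, called 13. By the latter, KO clones had smaller decreases of the collagen and fibronectin genes COL1A1, COL1A2, COL6A3 and FN1, and larger increases of SCUBE3 and HIST1H3D. The KO change of BLOC1S3 also lay above the WT change: it rose in both KO clones, and fell in WT clone 15 and rose in WT clone 54. ASNS, the asparagine synthetase, rose in both KO clones and was slightly lower with 4-OHT in both WT clones. KO clones also had larger decreases of THBS1, CITED2, TAGLN and TPM2, and a smaller increase of CCN1. As lists, for which no test was made, mitosis genes had a median above that of all genes, and cholesterol synthesis, interferon response and secretory genes one below it.

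The main test was limma-trend on log2(RPKM + 0.1) with the clone as a block, and a gene was called at a Benjamini-Hochberg adjusted p below 0.05 over all tested genes. It called 0 of 8666 genes (0.0%), with a lowest adjusted p of 0.231, and 347 genes (4.0%) had an unadjusted p below 0.05. That lowest p belonged to KRTAP1-5, a keratin-associated protein gene named here after its value was seen. KRTAP1-5 read 3.20 and 18.2 RPKM in WT clones 15 and 54 without and 1.00 and 5.74 with 4-OHT, against 14.1 and 16.8 in KO clones 66 and 69 without and 0 in both with 4-OHT. It is listed at 0 in both KO libraries with 4-OHT, so the size of its difference is set by the value added before the log and is not given. By limma-voom on recovered reads with the same block, 8 genes (0.0923%) were called higher and 5 (0.0577%) lower in KO clones. Without the block limma-voom called 4 genes (0.0462%), COL1A1 higher and CITED2, THBS1 and TAGLN lower, all 4 among the 13. The calls of limma-voom with the block depended on single clones. Without KO clone 69 only THBS1, TAGLN and BLOC1S3 of the 13 were still called. FN1, SCUBE3 and HIST1H3D were not called without WT clone 15, SCUBE3 was not without WT clone 54, and COL1A2 and TPM2 were not without KO clone 66.

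The interval around a single gene was wide. The median half-width of the 95% interval was 1.30 on the log2 scale over all tested genes, and for 693 genes (8.0%) the whole interval lay within a 2-fold difference either way. Among the 947 genes with a mean of at least 200 CPM (recovered reads scaled to library size) the median half-width was 0.83, and 33.0% of the intervals lay within 2-fold. The median absolute genotype difference, between means of 2 clones, was 0.42. Between single clones the median was 0.51 for a KO against a WT clone. It was 0.39 between WT clones 15 and 54 and 0.64 between KO clones 66 and 69. Over all tested genes KO clone 66, with the shallow library, had the larger changes. Among genes whose mean change was at least 2-fold, its median increase was 1.87 and its median decrease 2.28 log2 units. The other 3 clones had 1.43 to 1.51 and 1.35 to 1.55. At a mean of at least 200 CPM the clones were closer. KO clone 66 then had 1.794 and 2.001, against 1.565 to 1.695 and 1.851 to 1.997 in the other 3. An exact permutation test of 2 clones against 2 can give no p below 1 in 3, so differences outside the fitted models are given without one. In 1528 tested genes (17.6%) both KO changes lay above both WT changes, and in 1641 (18.9%) both lay below.

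**Figure D1:**
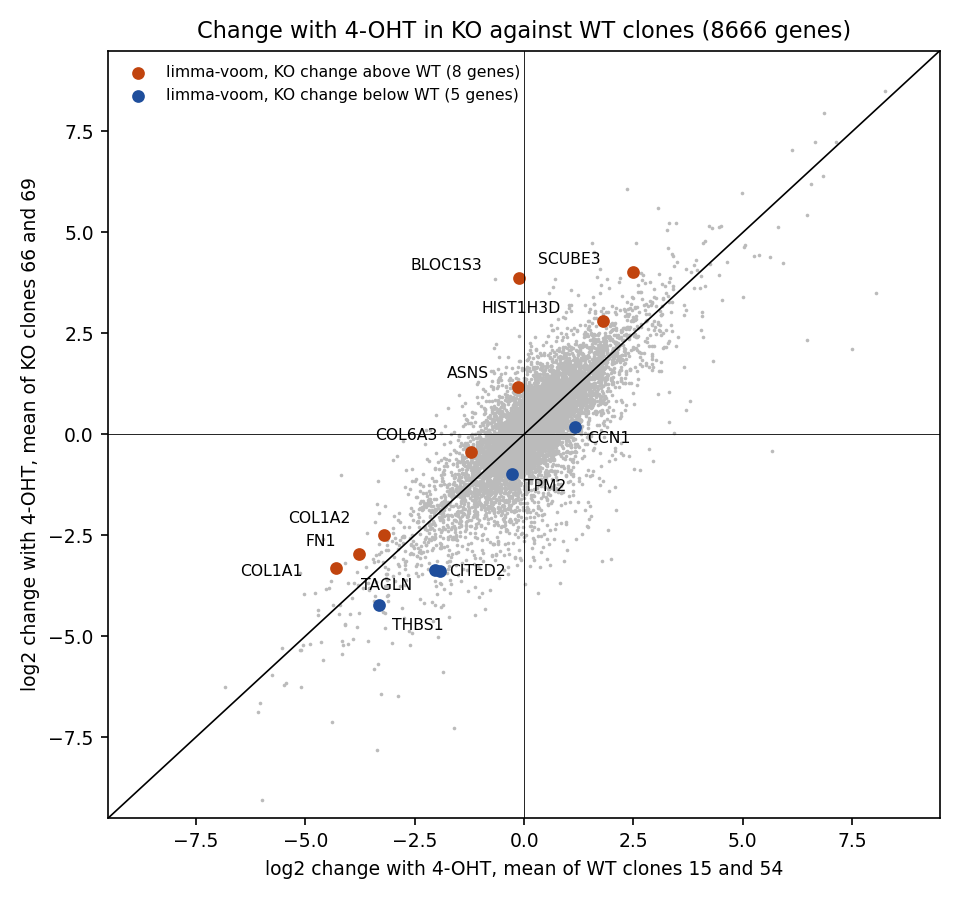
Mean log2 change with 4-OHT in WT clones (x axis) and in KO clones (y axis) for the 8666 tested genes, one grey point per gene, with the line of equal change. The 8 genes called higher (red) and 5 called lower (blue) by limma-voom lie off the line, most of them by less than 2 log2 units and BLOC1S3 by 3.99.

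Collagens and fibronectin came down less in KO than in WT clones. COL1A1 (chr17:50184101-50201631), which encodes a chain of type I collagen, read 1699 and 1594 RPKM in WT clones 15 and 54 without 4-OHT and 77.1 and 89.2 with it. In KO clones 66 and 69 it read 1222 and 983 without and 106 and 116 with 4-OHT. Both KO clones thus stood below both WT clones without 4-OHT and above them with it, and the ranges overlapped in neither table. The KO change minus the WT change was 1.01 ± 0.28 (SE; 95% interval 0.29 to 1.73; limma-trend adjusted p = 0.865), and limma-voom gave 1.12 ± 0.15 with an adjusted p of 0.000271. FN1 (chr2:215360865-215436068), encoding fibronectin, the glycoprotein that links cells to matrix, went from 137 and 141 to 10.2 and 10.1 RPKM in WT and from 105 and 90.5 to 12.3 and 12.3 in KO clones. The same crossing was seen: lower in KO without, higher in KO with 4-OHT, and a limma-voom difference of 0.82 ± 0.16 (adjusted p = 0.0213).

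COL1A2 (chr7:94394895-94431227), the other type I collagen chain, went from 808 and 788 to 102 and 73.1 RPKM in WT clones and from 766 and 650.2 to 139 and 111 in KO clones. COL6A3 (chr2:237324018-237414164), a chain of type VI collagen, went from 69.9 and 88.5 to 32.2 and 35.6 in WT and from 62.1 and 61.8 to 46.2 and 45.0 in KO clones. Their limma-voom differences were 0.62 ± 0.12 (adjusted p = 0.0213) and 0.74 ± 0.12 (adjusted p = 0.00189). In both genes the KO libraries with 4-OHT were the higher ones. PDGFRB, the receptor for platelet-derived growth factor, had a difference of 0.90 that passed neither test (95% interval -0.10 to 1.91). Over the 33 tested fibroblast matrix genes, 13 had both KO changes above and 7 both below the WT changes, beside 17.6% and 18.9% of all tested genes. Their median difference was 0.14 beside -0.02 over all tested genes, and 0.05 without KO clone 69. By limma-voom 4 of the 33 were called higher, those just given, and 1 lower, THBS1, beside 0.0923% and 0.0577% of all tested genes. The list as a whole was thus mixed, and the type I collagen and fibronectin genes differed from THBS1 in sign. The called genes of this list were deeply covered, averaging 4866 (FN1) to 25569 CPM (THBS1), and limma-voom weights values by read depth.

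THBS1 encodes thrombospondin-1, a matricellular glycoprotein that modulates adhesion and growth factor activity; CCN1 and CCN2 are matricellular proteins that are widely used as readouts of YAP and TAZ, the coactivators that bind DNA through TEAD factors. THBS1 (chr15:39581079-39599466) went from 2336 and 2146 to 263 and 194 RPKM in WT clones and from 3022 and 2849 to 140.0 and 173 in KO clones. KO clones were the higher ones without and the lower ones with 4-OHT, a mirror of COL1A1. The difference was -0.93 ± 0.28 (95% interval -1.64 to -0.21) by limma-trend and -0.90 ± 0.13 by limma-voom (adjusted p = 0.000535).

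CCN1 (chr1:85580761-85583950) went from 333 and 267 to 717 and 615 RPKM in WT clones and from 388 and 362 to 501 and 364 in KO clones. The WT clones thus about doubled, while KO clone 69 stayed level. Its limma-voom difference was -1.02 ± 0.18 (adjusted p = 0.00568). CCN2 (chr6:131948176-131951372) went from 217 and 240.5 to 221 and 175 RPKM in WT and from 328 and 285 to 197 and 126 in KO clones, a difference of -0.74 that passed neither test (95% interval -1.51 to 0.04; limma-voom adjusted p = 0.223).

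The bases before the start of THBS1 and CCN2 are shown because both hold GGAATG, the core of the TEAD binding site, in capitals. They are the 150 bases before the RefSeq start (GRCh38.p14), at chr15:39580929-39581078 on the plus strand and chr6:131951373-131951522 on the minus strand.
THBS1: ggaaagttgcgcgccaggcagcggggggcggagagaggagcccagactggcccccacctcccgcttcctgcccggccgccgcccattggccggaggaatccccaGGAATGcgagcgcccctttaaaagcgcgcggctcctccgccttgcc
CCN2: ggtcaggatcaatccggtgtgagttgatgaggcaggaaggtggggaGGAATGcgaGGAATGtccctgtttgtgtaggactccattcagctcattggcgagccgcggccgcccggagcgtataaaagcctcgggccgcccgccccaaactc
The match lies 46 to 41 bases before the start in THBS1, and in CCN2 there are 2, at 104 to 99 and 95 to 90 bases. Searched on both strands, GGAATG stood in 7.08% of all 35116 promoter windows of this length, and in 5.05% of the 7029 first promoters of tested genes. The promoter table matched 47 of the 62 genes whose values are given here, not CCN1 or TAGLN, and a match describes the letters only. GGAATG also stood before the start of KIF2C, 36 to 31 bases away, a mitosis gene whose difference had the opposite sign (0.86) and passed no test.

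Of the contractile apparatus, limma-voom called TAGLN and TPM2 lower. TAGLN (chr11:117199294-117207465), encoding the actin-binding protein transgelin, went from 411 and 373 to 95.8 and 112 RPKM in WT clones and from 293 and 274 to 23.3 and 31.4 in KO clones. KO clones were lower in both tables, by 0.46 log2 units without and by 1.93 with 4-OHT. The difference was -1.47 ± 0.30 (95% interval -2.24 to -0.70) by limma-trend and -1.29 ± 0.23 by limma-voom (adjusted p = 0.00738). TPM2 (chr9:35681993-35690056), a tropomyosin, went from 579 and 513 to 455 and 438 in WT clones and from 576 and 425 to 261 and 235 in KO clones, with a limma-voom difference of -0.65 ± 0.14 (adjusted p = 0.0392). KO and WT clones overlapped without 4-OHT and separated with it. MYL9, a myosin light chain, had a difference of -0.58 that passed neither test. Of 15 tested contractile genes 7 had both KO changes below and 1 both above the WT changes, beside 18.9% and 17.6% of all tested genes. Their median difference was -0.42, and -0.22 without KO clone 66.

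CITED2 (chr6:139371807-139374648), a transcriptional coregulator that binds CBP and p300, had the smallest limma-trend p among the called genes. It went from 614 and 653 to 144 and 162 RPKM in WT clones and from 1179 and 1067 to 122 and 97.1 in KO clones. Without 4-OHT the KO clones lay above WT by 0.82 log2 units, and with it below by 0.49. The difference was -1.32 ± 0.24 (95% interval -1.92 to -0.72; unadjusted p = 0.00231, adjusted p = 0.865), and limma-voom gave -1.36 ± 0.22 (adjusted p = 0.00189). SCUBE3 (chr6:35213956-35253079), a secreted and cell-surface glycoprotein, moved the opposite way. It went from 3.44 and 3.72 to 19.4 and 22.04 RPKM in WT and from 1.39 and 1.27 to 25.2 and 21.2 in KO clones. KO clones started lower by 1.36 log2 units and ended 0.16 above WT, where the clones overlapped, and the limma-voom difference was 1.56 ± 0.31 (adjusted p = 0.0213).

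**Figure D2:**
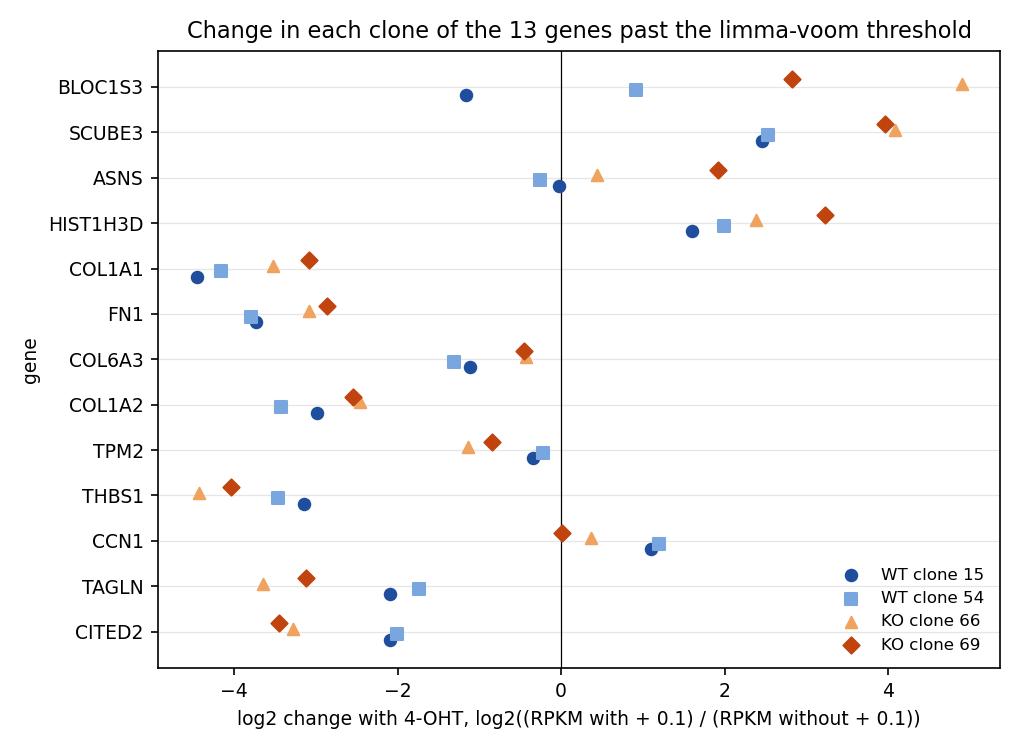
Log2 change with 4-OHT in each clone for the 13 genes called by limma-voom, WT clones in blue and KO clones in orange and red. In each gene both KO points lie on one side of both WT points, and the clones of a genotype lie farthest apart in BLOC1S3.

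Amino acid supply genes, many of them targets of ATF4, the transcription factor of the integrated stress response, had a lower median level in KO than in WT clones without 4-OHT and a similar one with it. ASNS (chr7:97851677-97928441) read 5.36 and 5.98 RPKM without and 5.29 and 5.0 with 4-OHT in WT clones. In KO clones it went from 3.69 and 1.95 to 5.05 and 7.66. Both KO clones were thus below WT without 4-OHT, and only clone 69 was above both WT clones with it. The difference was 1.32 ± 0.57 (95% interval -0.14 to 2.78) by limma-trend and 1.56 ± 0.31 by limma-voom (adjusted p = 0.0213). Without KO clone 69 these were 0.58 and 0.56, and neither was called. MTHFD2, a mitochondrial folate enzyme, went from 5.15 and 4.47 to 6.16 and 5.64 RPKM in WT clones and from 3.33 and 3.42 to 9.68 and 9.56 in KO clones. Its difference of 1.19 (95% interval 0.38 to 2.0) was not called by limma-voom (adjusted p = 0.536).

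PSAT1, an enzyme of serine synthesis, went from 3.92 and 3.61 to 3.27 and 2.63 RPKM in WT clones and from 1.18 and 1.76 to 2.07 and 3.46 in KO clones. DDIT4, an inhibitor of mTORC1 that is induced by stress, went from 26.1 and 31.1 to 7.58 and 20.1 in WT clones and from 8.40 and 14.1 to 14.9 and 17.3 in KO clones. Values went down in both WT clones and up in both KO clones in PSAT1, DDIT4 and ASNS, and the differences of PSAT1 (1.20, 95% interval 0.21 to 2.19) and DDIT4 (1.76, 0.55 to 2.97) passed neither test. The library of KO clone 66 with 4-OHT held about 13 recovered reads for PSAT1 and 6 for DDIT4. Of 22 tested ATF4 targets limma-voom called 1 higher, beside 0.0923% of all tested genes. Of these targets 9 had both KO changes above and 3 both below the WT changes, beside 17.6% and 18.9% of all tested genes. Their median difference was 0.32, and 0.55 without KO clone 66. As a summed share of footprints the list changed by -0.79 and -0.67 log2 units in WT clones and by -0.40 and -0.30 in KO clones. Its median KO minus WT level was -0.51 without and -0.08 with 4-OHT, so that the difference lay mainly in the table without 4-OHT.

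The bases before the upstream start of ASNS are shown because they hold TGATGNAA, the core of the composite element bound by ATF4 with C/EBP factors, in capitals; they are the 150 bases at chr7:97872409-97872558 on the minus strand (RefSeq, GRCh38.p14).
ASNS: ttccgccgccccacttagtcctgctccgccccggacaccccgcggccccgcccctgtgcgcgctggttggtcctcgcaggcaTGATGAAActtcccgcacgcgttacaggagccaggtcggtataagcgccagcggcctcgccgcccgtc
The match lies 68 to 61 bases before the start. Searched on both strands, TGATGNAA stood in 1.9% of all 35116 windows and in 0.74% of the first promoters of tested genes. These letters were not in the windows of MTHFD2, PSAT1 and DDIT4, and neither motif overlaps the other in the windows shown.

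Mitosis genes had a median difference above that of all genes. Of 37 tested, 16 had both KO changes above and 1 both below the WT changes, beside 17.6% and 18.9% of all tested genes, and the median difference was 0.41 beside -0.02. Neither limma-trend nor limma-voom called any of them. An unadjusted limma-trend p below 0.05 was held by 2 of the 37, CDC20 and CCNB1, beside 4.0% of all tested genes. CDC20, an activator of the anaphase-promoting complex, went from 12.2 and 19.2 to 36.9 and 52.3 RPKM in WT clones and from 7.88 and 10.9 to 52.1 and 61.2 in KO clones, a difference of 1.08 (95% interval 0.40 to 1.75; limma-trend unadjusted p = 0.00931, adjusted p = 0.865). CCNB1, the mitotic cyclin B1, went from 6.82 and 6.95 to 23.5 and 22.03 in WT clones and from 4.10 and 7.01 to 26.9 and 35.7 in KO clones, a difference of 0.80. In CDC20 the KO clones were the lower ones without 4-OHT, and in CCNB1 they were the higher ones with it.

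MKI67, which encodes Ki-67, a protein of cycling cells, went from 2.72 and 2.89 to 1.41 and 1.54 RPKM in WT clones and from 3.32 and 3.79 to 3.17 and 2.87 in KO clones, so the KO clones lay above both WT clones in both tables. Its difference was 0.66 (95% interval -0.34 to 1.65). CCNB2, cyclin B2, and KIF2C, a microtubule-depolymerising kinesin, had differences of 1.07 and 0.86, both with intervals that include 0. The summed share of the list changed by 0.69 and 0.85 log2 units in WT and by 1.32 and 1.14 in KO clones, and here the median KO minus WT level was -0.16 without and 0.32 with 4-OHT. The 35 DNA replication genes did not share this: 5 lay above, 5 below, and their median difference was -0.03. Senescence hallmark genes had a median difference of 0.11, with 4 of 12 above and 2 below. Of all tested genes 17.6% lay above and 18.9% below.

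Replication-dependent histone genes, which are made in S phase, were measured for 51 members, of which 10 lay above and 3 below WT, beside 17.6% and 18.9% of all tested genes. Their median difference was 0.15, and it ranged from -0.34 to 0.58 as single clones were left out. HIST1H3D went from 144 and 157 to 434 and 624 RPKM in WT clones and from 154 and 129 to 803 and 1212 in KO clones, with a limma-voom difference of 1.17 ± 0.24 (adjusted p = 0.0213), which was 0.60 and not called without KO clone 69. HIST2H2BE went from 22.8 and 25.4 to 73.0 and 62.7 in WT clones and from 17.2 and 19.2 to 103 and 159 in KO clones, a difference of 1.32 that was not called by limma-voom (adjusted p = 0.431). In both genes the 2 KO clones lay above both WT clones with 4-OHT and not without it. Histone genes are near-identical copies and HIST1H3D overlaps another histone gene in RefSeq, so reads may be split among them and the values of single histone genes are uncertain. Their summed share changed by 1.95 and 2.51 log2 units in WT clones and by 2.25 and 2.45 in KO clones, so the KO clones lay between the WT clones.

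BLOC1S3, a subunit of a complex that forms lysosome-related organelles, had the largest difference among the called genes. It went from 2.72 and 2.90 to 1.16 and 5.55 RPKM in WT clones and from 0.363 and 0.382 to 13.7 and 3.33 in KO clones. The KO clones were far below WT without 4-OHT, but with it the WT clones were far apart and KO clone 69 lay between them. The limma-voom difference was 4.24 ± 0.69 (adjusted p = 0.00189) and that of limma-trend 3.99 (95% interval 1.44 to 6.54). Its RefSeq span overlaps EXOC3L2, so its value is uncertain.

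**Figure D3:**
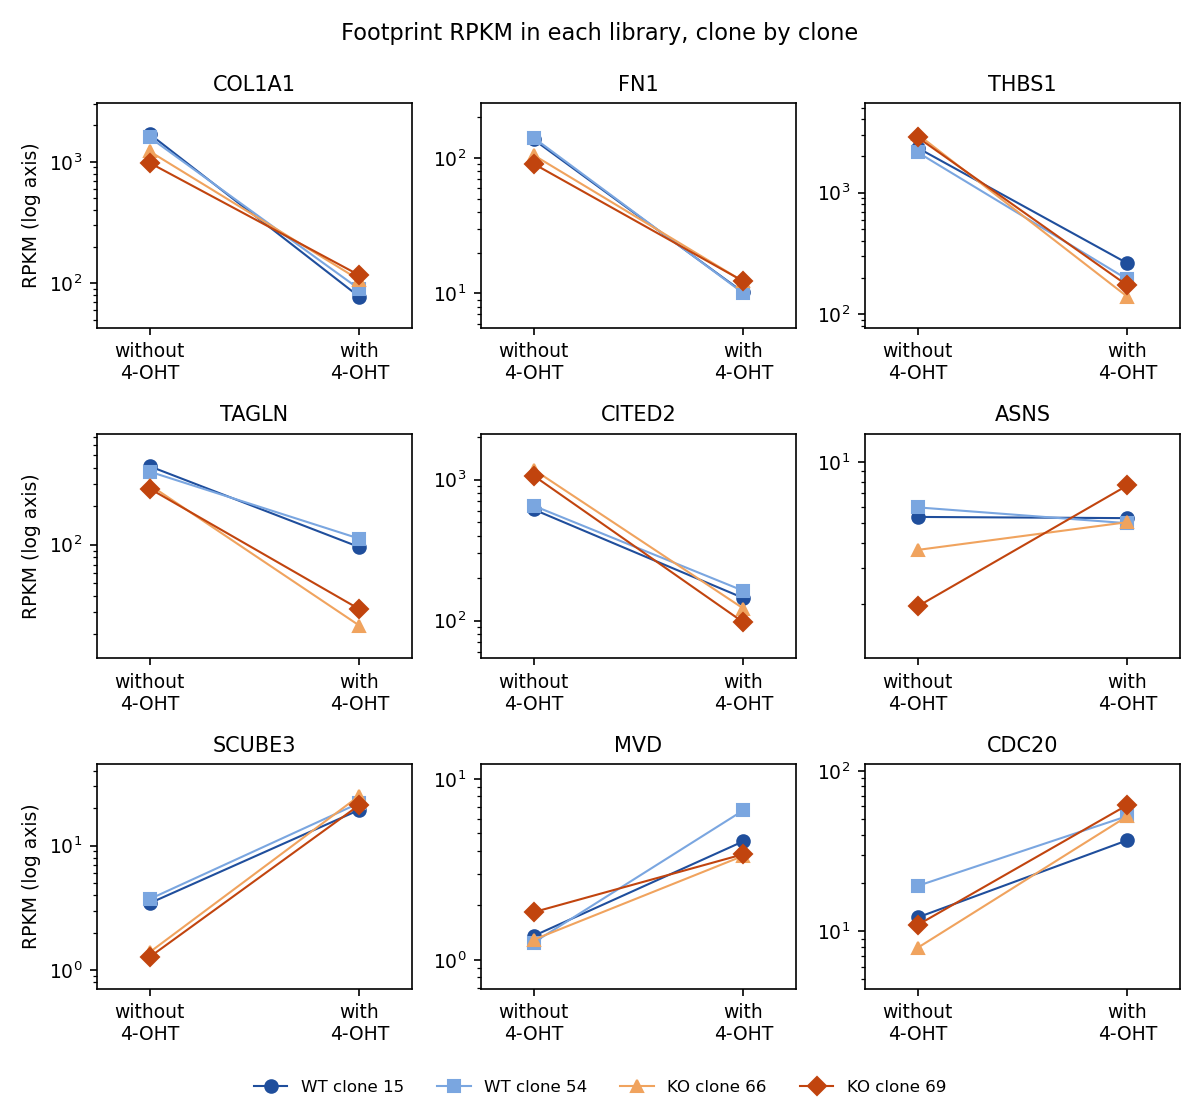
Footprint RPKM (log axis) of 9 genes in each library, with a line joining the libraries of a clone without and with 4-OHT. Lines cross between genotypes in COL1A1, FN1, THBS1 and CITED2, and stay apart in TAGLN, where both KO clones are lower throughout.

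For cholesterol synthesis and uptake genes the KO change mostly lay below the WT change. None of the 22 tested had both KO changes above WT and 13 had both below, beside 17.6% and 18.9% of all tested genes. The median difference was -0.52; 0 of the 22 were called by limma-trend or limma-voom, and 3 had an unadjusted limma-trend p below 0.05, beside 4.0% of all tested genes. MSMO1, a sterol oxidase of the pathway, went from 3.17 and 2.20 to 19.9 and 15.8 RPKM in WT clones and from 3.36 and 3.40 to 9.13 and 13.6 in KO clones, a difference of -1.01 (95% interval -1.91 to -0.10). SCD, the stearoyl-CoA desaturase, went from 5.42 and 4.82 to 18.9 and 18.3 in WT clones and from 6.62 and 7.54 to 10.1 and 14.8 in KO clones, a difference of -1.06 (-1.85 to -0.28). In both genes the KO clones lay above WT without and below WT with 4-OHT.

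FASN, the fatty acid synthase, went from 15.2 and 15.6 to 13.2 and 19.5 RPKM in WT clones and from 22.2 and 23.6 to 12.4 and 12.8 in KO clones, a difference of -0.92 (95% interval -1.71 to -0.13). MVD, a decarboxylase of the mevalonate pathway, had a difference of -0.75 with an interval of -1.91 to 0.41. The summed share of the list went from 0.135% and 0.126% to 0.333% and 0.312% of footprints in WT clones. In KO clones it went from 0.153% and 0.170% to 0.277% and 0.279%. These are changes of 1.31 and 1.31 log2 units in WT and of 0.86 and 0.72 in KO clones, with KO above WT without and below WT with 4-OHT in every clone.

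**Figure D4:**
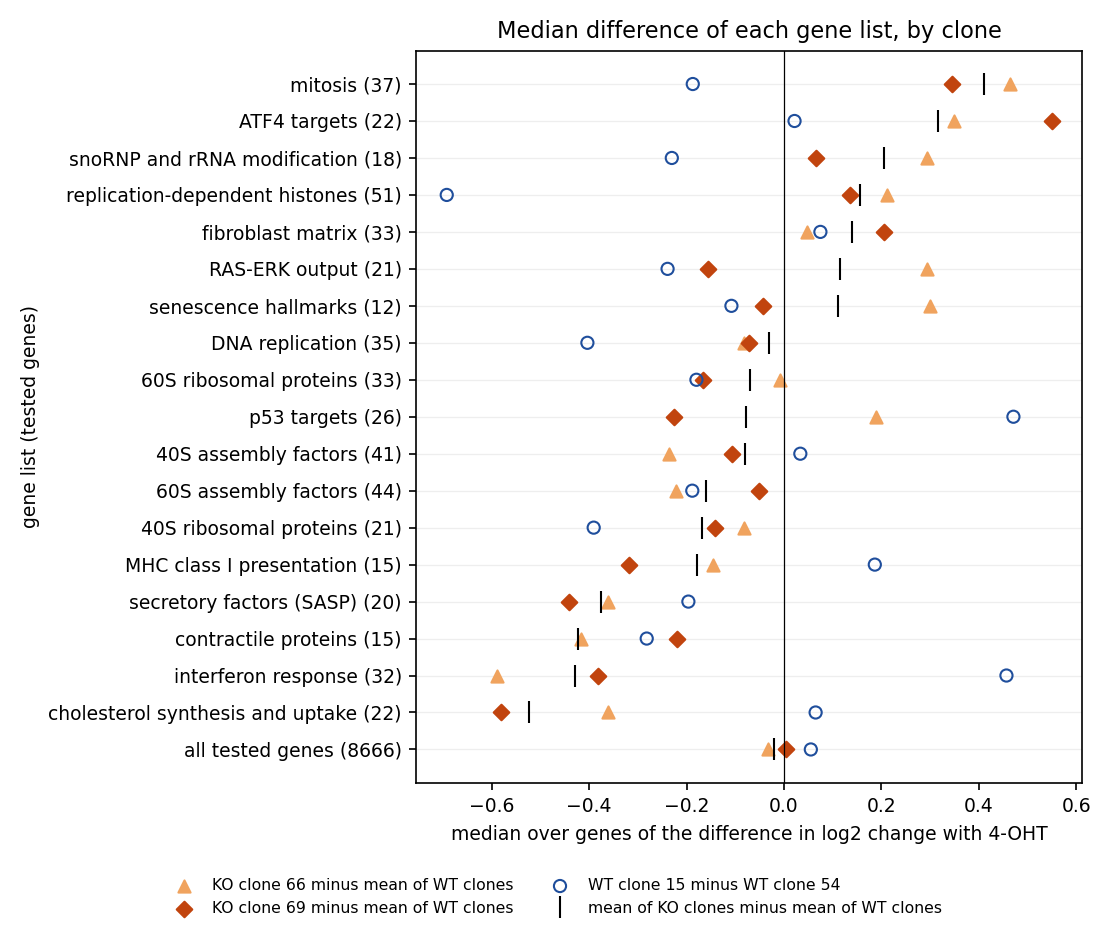
Median over the tested genes of each list of the difference in log2 change with 4-OHT, for KO clone 66 and KO clone 69 each against the mean of the WT clones, for both together (black bar), and between the WT clones (open circles). Both KO clones lie on the same side of 0 and farther from it than the WT clones from each other for mitosis, ATF4 targets, secretory factors and cholesterol genes, which is not so for interferon response or histones.

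Interferon response genes, which are induced by interferons against viruses, had a lower summed share with 4-OHT in every clone, and the change of the median gene was farther below 0 in KO clones. Of 32 tested, 0 lay above and 10 below, beside 17.6% and 18.9% of all tested genes. The median difference was -0.43, but -0.17 without WT clone 15 and -0.73 without WT clone 54. Neither limma-trend nor limma-voom called any of them, and 2 had an unadjusted limma-trend p below 0.05, beside 4.0% of all tested genes. IFI35, an interferon-induced protein, went from 17.9 and 17.0 to 4.45 and 7.69 RPKM in WT clones and from 19.6 and 25.9 to 4.07 and 3.82 in KO clones, a difference of -0.93 (95% interval -1.99 to 0.14). IFI6, the most abundant of those named here, went from 595 and 1083 to 18.6 and 28.8 in WT clones and from 884 and 1393 to 28.2 and 26.2 in KO clones, with overlapping clone changes and a difference of -0.23. The median gene differed by 0.46 between the single WT clones 15 and 54. That size lies between those of the KO clones against the WT mean, -0.59 in clone 66 and -0.38 in clone 69.

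The peptide transporter subunits TAP1 and TAP2, which load MHC class I molecules, differed alike. TAP1 went from 15.6 and 27.4 to 8.72 and 10.6 RPKM in WT clones and from 21.0 and 30.5 to 4.78 and 7.90 in KO clones, a difference of -0.93 (95% interval -1.75 to -0.11). TAP2 went from 6.49 and 7.41 to 4.10 and 5.02 in WT clones and from 9.44 and 11.3 to 1.86 and 3.79 in KO clones, a difference of -1.32 (-2.32 to -0.32). In both genes both KO clones were below both WT clones with 4-OHT, and neither gene passed a test. The library of KO clone 66 with 4-OHT held about 8 recovered reads for TAP1 and 6 for TAP2. Of 15 tested MHC class I presentation genes 1 lay above and 5 below (17.6% and 18.9% of all tested genes), with a median difference of -0.18.

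Secreted factors of the senescence-associated secretory phenotype had a median below that of all genes. Of 20 tested genes 11 had both KO changes below and 1 both above, beside 18.9% and 17.6% of all tested genes, and the median difference was -0.38. The change of the median gene was ordered the other way, at 1.99 in WT and 3.03 in KO clones. None was called by limma-trend or limma-voom, and 6 had an unadjusted limma-trend p below 0.05, beside 4.0% of all tested genes. IL1B, a cytokine that starts the secretory programme, went from 1.69 and 0.707 to 135 and 84.0 RPKM in WT clones and from 1.86 and 3.60 to 103 and 131 in KO clones, a difference of -1.04 (95% interval -1.94 to -0.13). CXCL8, the neutrophil chemokine interleukin-8, went from 1.92 and 0 to 122 and 116 in WT clones and from 4.58 and 20.2 to 121 and 100.3 in KO clones. With 4-OHT the clones of both genotypes overlapped in both cytokines, and the difference lay in the higher KO level without 4-OHT. The limma-voom adjusted p of CXCL8 was 0.0975, and since WT clone 54 is listed at 0 without 4-OHT the size of its difference depends on the value added.

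CCL2, a monocyte chemokine, went from 69.8 and 34.9 to 8.34 and 2.65 RPKM in WT clones and from 60.7 and 97.8 to 0 and 1.06 in KO clones. IGFBP3, which binds insulin-like growth factors, went from 198 and 179.9 to 1.97 and 4.14 in WT clones and from 193 and 195 to 0 and 1.24 in KO clones. Here the difference lay in the libraries with 4-OHT, where both KO clones were below both WT clones. For CCL2 that separation rests on about 2 recovered reads in KO clone 69 against 3 in WT clone 54, so it is uncertain. Both genes are listed at 0 in the shallow library of KO clone 66 with 4-OHT, and neither passed a test. HGF, the hepatocyte growth factor, was the exception above WT: it went from 0.245 and 0.267 to 0.476 and 1.12 RPKM in WT clones and from 0.0156 and 0.00823 to 1.25 and 0.989 in KO clones (limma-voom adjusted p = 0.0738). Without 4-OHT, HGF rests on about 1 recovered read in each KO clone, against about 23 and 15 in WT clones. The size of its difference is thus uncertain. MMP1, a collagenase, went from 15.8 and 9.21 to 1412 and 1418 in WT clones and from 3.63 and 22.3 to 2213 and 2343 in KO clones, with clone changes that overlapped and a difference of 1.10 (95% interval -1.08 to 3.27).

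For the p53 pathway no difference was detectable at this precision. CDKN1A (chr6:36676463-36687332), the cell-cycle inhibitor p21, went from 5.84 and 14.2 to 172 and 129 RPKM in WT clones and from 7.03 and 10.4 to 136 and 84.3 in KO clones. The clone changes overlapped, at 4.86 and 3.18 log2 units in WT and 4.25 and 3.004 in KO clones, and the difference of -0.39 had an interval of -2.17 to 1.39, which includes a difference of more than 2-fold in either direction. MDM2, the ubiquitin ligase that restrains p53, went from 1.17 and 1.31 to 3.70 and 2.64 in WT clones and from 1.25 and 1.39 to 3.82 and 2.04 in KO clones, a difference of -0.24 (95% interval -1.64 to 1.17). Of 26 tested p53 targets 4 lay above and 2 below (17.6% and 18.9% of all tested genes), with a median difference of -0.08. The median p53 target differed by 0.47 between WT clones 15 and 54 and by 0.43 between KO clones 66 and 69. Each KO clone differed less from the WT mean, by 0.19 in clone 66 and by -0.23 in clone 69.

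Among other p53 targets, PHLDA3, an inhibitor of AKT, had a difference of 1.08 (95% interval -0.41 to 2.57), EDA2R, a receptor of the TNF receptor family, one of -0.92 (-2.31 to 0.48) and CCNG1, cyclin G1, one of 0.44 (-0.38 to 1.27). These point in both directions, and none passed a test. Among output genes of RAS-ERK signalling, DUSP6, an ERK phosphatase that is a feedback target of the pathway, went from 11.5 and 11.5 to 84.7 and 81.6 RPKM in WT clones and from 14.5 and 14.9 to 99.5 and 82.0 in KO clones. Its difference was -0.23 (95% interval -0.90 to 0.44), which lies within a 2-fold difference either way. PHLDA1, TMEM158 and HMGA1, which were much higher with 4-OHT in every clone, had differences of 0.65 (-0.93 to 2.24), -0.44 (-1.08 to 0.20) and 0.92 (-0.89 to 2.72). Of 21 RAS-ERK output genes 3 lay above and 5 below (17.6% and 18.9% of all tested genes), with a median difference of 0.12.

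**Figure D5:**
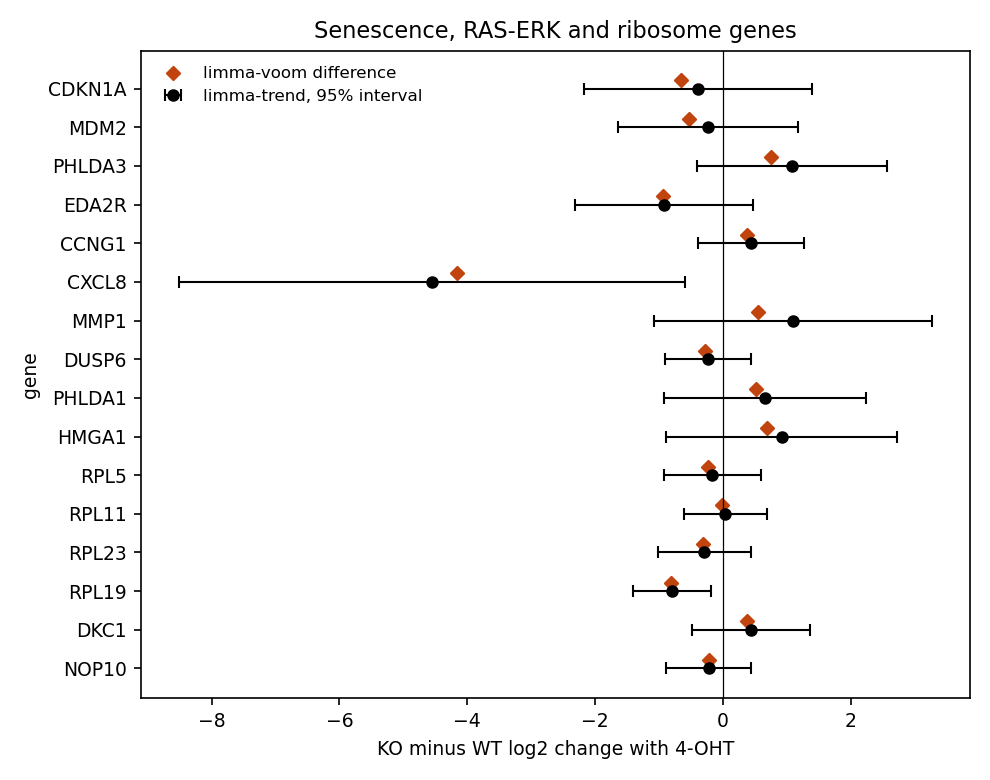
KO minus WT difference in log2 change with 4-OHT for 16 genes of senescence, RAS-ERK signalling and the ribosome, as limma-trend estimates with 95% intervals (black) and limma-voom estimates (red). The intervals of CXCL8 and RPL19 lie wholly below 0 without passing the adjusted threshold.

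For the ribosome, whose large (60S) and small (40S) subunits are assembled in the nucleolus, no list held a called gene. RPL5 and RPL11 form with 5S rRNA the particle that binds MDM2 when ribosome assembly is disturbed. RPL5 went from 5.93 and 5.47 to 16.2 and 15.5 RPKM in WT clones and from 5.91 and 9.47 to 16.3 and 20.9 in KO clones, a difference of -0.17 (95% interval -0.93 to 0.59). RPL11 went from 44.2 and 53.6 to 138 and 129.9 in WT clones and from 54.7 and 59.6 to 156 and 166 in KO clones, a difference of 0.04 (-0.61 to 0.69). RPL23, a 60S protein that also binds MDM2, had a difference of -0.29 (-1.02 to 0.44). For these 3 genes any difference over about 2-fold lay outside or at the edge of the interval.

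RPL19, another 60S protein, differed more than RPL5, RPL11 and RPL23. It was 1 of 2 among 33 tested 60S proteins with an unadjusted limma-trend p below 0.05, beside 4.0% of all tested genes. The other was RPL15, with a difference of -1.28 (95% interval -2.33 to -0.24). RPL19 went from 23.1 and 27.6 to 63.3 and 70.6 RPKM in WT clones and from 34.6 and 38.2 to 52.98 and 57.9 in KO clones. It was thus above WT in both KO clones without and below WT with 4-OHT. Its difference was -0.80 (95% interval -1.41 to -0.18; unadjusted p = 0.0203, limma-trend adjusted p = 0.865), and it was not called by limma-voom (adjusted p = 0.869). Of 33 tested 60S proteins 1 lay above and 6 below, with a median difference of -0.07 (17.6% and 18.9% of all tested genes lay above and below); of 21 tested 40S proteins 1 lay above and 3 below, with a median of -0.17. Ribosomal protein genes have many processed pseudogenes, and how multi-mapping reads were treated is not given in the sources used here, so their single values are uncertain.

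Assembly factors and the modification machinery were measured as well. Of all tested genes 17.6% lay above and 18.9% below. Of 44 tested 60S assembly factors 5 lay above and 11 below (median -0.16). Of 41 tested 40S assembly factors 4 lay above and 10 below (median -0.08). Proteins of small nucleolar ribonucleoproteins and rRNA modification had 5 of 18 above and 2 below, with a median of 0.21. DKC1, the pseudouridine synthase of H/ACA particles, went from 2.48 and 2.96 to 5.36 and 4.66 RPKM in WT clones and from 3.19 and 2.86 to 8.06 and 7.08 in KO clones, a difference of 0.44 (95% interval -0.49 to 1.36). NOP10, another protein of these particles, went from 44.9 and 59.6 to 246 and 257 in WT clones and from 60.5 and 65.0 to 232 and 294 in KO clones, a difference of -0.22 (-0.89 to 0.45). None of these genes or lists held a called gene: limma-trend and limma-voom each called 0. An unadjusted limma-trend p below 0.05 was held by 3 of the 60S and 3 of the 40S assembly factors, beside 4.0% of all tested genes.

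Outside the lists, the genes of smallest limma-trend p with separated clones and a mean of at least 20 CPM were taken by a fixed rule, and none passed the main test. Part of them are given here. Below WT, the smallest unadjusted limma-trend p values included those of CST1 (0.00163), KCTD4 (0.00184) and C3 (0.0033). CST1 and KCTD4 are listed at 0 in both WT clones without 4-OHT. C3 is listed at 0 with 4-OHT in both WT clones and in KO clone 66. The sizes of these differences thus depend on the value added and are not given. Also below WT were BHLHE40, a circadian and hypoxia-linked repressor, and MAB21L1, a developmental gene. BHLHE40 went from 2.56 and 3.06 to 10.2 and 11.2 RPKM in WT clones and from 5.36 and 6.31 to 5.06 and 8.69 in KO clones, a difference of -1.71 (95% interval -2.62 to -0.80). The WT clones were the lower ones without and the higher ones with 4-OHT. MAB21L1 went from 52.7 and 44.3 to 17.0 and 12.9 in WT clones and from 56.0 and 59.5 to 5.19 and 8.07 in KO clones, a difference of -1.44 (-2.22 to -0.65). FOXE1, a forkhead transcription factor, went from 10.7 and 13.5 to 1.20 and 1.96 in WT clones and from 16.7 and 18.6 to 0 and 0.294 in KO clones. BHLHE40 and MAB21L1 rest on 6 and 3 recovered reads in KO clone 66 with 4-OHT, and FOXE1 is listed at 0 there.

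Above WT were FSCN1, the actin-bundling protein fascin, and SMAGP, a small membrane glycoprotein. FSCN1 went from 19.2 and 24.7 to 56.6 and 83.4 RPKM in WT clones and from 11.6 and 13.6 to 76.1 and 85.6 in KO clones, a difference of 1.02 (95% interval 0.38 to 1.66; limma-voom adjusted p = 0.0975). KO clones were below both WT clones without 4-OHT, and the genotypes overlapped with it. SMAGP went from 0.351 and 0.489 to 1.51 and 1.71 in WT clones and from 0.129 and 0.158 to 5.27 and 3.07 in KO clones, a difference of 2.36 (0.89 to 3.82). Its KO clones were lower than WT without and higher than WT with 4-OHT, at low levels throughout.

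In some genes the genotypes moved in opposite directions. Among the 6344 genes with a mean of at least 20 CPM, 112 (1.77%) were higher with 4-OHT in both KO clones and lower in both WT clones, and 130 (2.05%) the reverse. Taken from the smallest p, the former included PTGS1, the constitutive cyclooxygenase COX-1, which went from 19.2 and 15.9 to 15.4 and 9.36 RPKM in WT clones and from 10.6 and 11.8 to 17.2 and 18.9 in KO clones. Its difference was 1.22 (95% interval 0.45 to 1.99; limma-voom adjusted p = 0.0769), with KO below WT without and above WT with 4-OHT. KLF9, a transcription factor induced by glucocorticoids, went from 1.03 and 0.716 to 0.829 and 0.452 in WT clones and from 0.222 and 0.273 to 1.05 and 0.949 in KO clones. PAXX, a DNA end-joining factor, went from 11.2 and 16.3 to 10.7 and 14.2 in WT clones and from 8.56 and 7.90 to 40.4 and 17.0 in KO clones. The differences of KLF9 and PAXX, 2.09 and 1.79, were not called by limma-voom (adjusted p = 0.699 and 0.969), and both rest on at most 12 recovered reads in KO clone 66 with 4-OHT.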

How the data were processed

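Ribosome-protected fragments were prepared after McGlincy and Ingolia, per the labels' protocols. The authors deposited RPKM values per gene, 1 table without and 1 with 4-OHT; the tables name no unit, which was read from the values. Alignment with STAR to GRCh38 is named in the submitters' processing notes, with no version; the annotation is not given in the sources used here. RPKM steps were used to recover reads, approximately: 77.7% to 85.1% of the 2500 lowest values in a library were within 0.1 of a whole read. Positions and the spans used for this come from RefSeq GRCh38.p14.

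Genes in both tables were tested, if 2 or more libraries held 10 or more recovered reads each, by limma-trend (limma 3.58.1, R 4.3.3) on log2(RPKM + 0.1), since 1 exceeds the median RPKM of every library. The coefficient was the KO change minus the WT change, with clone as a fixed block because the change is taken within each clone. Pairing comes from the clone labels; the deviations of a clone's 2 libraries correlated at 0.141 in WT and -0.0184 in KO clones over 6344 genes. P-values were adjusted by Benjamini-Hochberg, and the scripts were tested on simulated data. In both tests limma combines the spread of a gene between these clones with the spread over all genes. For CITED2 the SE was alike, 0.24 by limma-trend and 0.22 by limma-voom, but the unadjusted p was 0.0023 and 1.1e-06. The p-values of limma-voom thus do not measure the spread between these clones alone. Alternatives were limma-voom on recovered reads, no block, 1 added, other filters, other scaling and leaving out each clone. Depth, in recovered reads, sets the precision. No per-sample column was unused (0).

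Members and gene lists were chosen with earlier results of these data known. Genes were named from a fixed panel, the 8 smallest p-values in each direction among genes averaging 20 CPM or more whose clones do not overlap, up to 4 of largest difference per list under the same conditions, and those called by limma-voom; the text gives part of them. Promoter sequences are RefSeq's, 150 bases before the start. Of the panel, GDF15, IL6, SNORA13, EPB41L4A-AS1, EPB41L4A, HRAS, CDKN2A and LMNB1 were not analysed here.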

Additional observations from a re-analysis of the deposited data

Results flagged for a closer look

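The genotype difference of 13 genes passed the threshold of limma-voom with the clone as a block, and that of none passed limma-trend. Higher in KO clones, as limma-voom log2 differences, were ASNS (1.565), SCUBE3 (1.565), COL1A1 (1.119), FN1 (0.817), COL6A3 (0.736), COL1A2 (0.619), HIST1H3D (1.17) and BLOC1S3 (4.244). Lower were CITED2 (-1.356), TAGLN (-1.287), CCN1 (-1.017), THBS1 (-0.904) and TPM2 (-0.649). All 13 kept their sign in the other fits.

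In 6 of the genes given above, both KO clones were higher and both WT clones lower with 4-OHT. The limma-trend differences were 2.089 for KLF9, 1.794 for PAXX, 1.758 for DDIT4, 1.321 for ASNS, 1.224 for PTGS1 and 1.2 for PSAT1. None passed limma-trend, and of the 6 limma-voom called ASNS.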

How the results depend on the processing

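By limma-trend no gene was called with 1 added, with no filter, with a stricter filter, under either rescaling, without the replicate block or, chosen after seeing the data, on log2(CPM + 5). Limma-voom with the replicate block called 13 genes, 8 higher and 5 lower, and with no replicate block 4, 1 higher and 3 lower, so the pairing by clone set part of the count. Leaving out 1 clone gave 0 to 439 calls, 0 to 103 higher and 0 to 336 lower; the 439 came without clone 69, when KO rests on clone 66 and its shallow library alone, assumed to vary like the others, and without clones 15, 54 or 66 there were 0. Limma-voom with the block, leaving out each clone, was also chosen after seeing the data: it called 17, 20, 26 and 15 genes without clones 15, 54, 66 and 69, of which 10, 12, 11 and 3 were among the 13.

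Of 62 genes with values in the text, 54 kept their direction in all 17 alternatives. The exceptions over left-out clones were IFI6 (-0.633 to 0.156), CDKN1A (-1.432 to 0.451), MDM2 (-0.858 to 0.27), MMP1 (-0.157 to 2.418), HMGA1 (-0.065 to 2.023), PHLDA1 (-0.372 to 1.381), RPL5 (-0.326 to 0.018) and RPL11 (-0.157 to 0.219); RPL11 was also -0.011 by limma-voom with the block and -0.032 under median-ratio scaling. List medians kept their sign for cholesterol (-0.606 to -0.361), mitosis (0.299 to 0.495), secretory factors (-0.446 to -0.325), contractile proteins (-0.492 to -0.219), ATF4 targets (0.214 to 0.65) and matrix (0.046 to 0.244), and not for RAS-ERK output (-0.157 to 0.318) and senescence hallmarks (-0.062 to 0.327).

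Over left-out clones the medians ranged from -0.205 to 0.017 for 60S proteins, -0.305 to 0.17 for 40S proteins, -0.221 to 0.026 for 60S assembly, -0.236 to 0.021 for 40S assembly, -0.077 to 0.294 for snoRNP and rRNA modification, -0.415 to 0.189 for p53 targets, -0.344 to 0.302 for DNA replication, -0.731 to -0.045 for interferon response, -0.382 to -0.127 for MHC class I and -0.339 to 0.578 for histones. Median-ratio scaling gave -0.141 for 60S proteins and -0.149 for 40S assembly. The 60S assembly median was -0.081 with 1 added, 0.0062 by limma-voom with the block and -0.0052 without it. The 40S assembly median was -0.0087 with the stricter filter, -0.105 by limma-voom with the block and -0.114 without it, and MHC class I was -0.083 by limma-voom without the block. The cause was not tested. The depth of KO clone 66 with 4-OHT, 192159 recovered reads, limits what low genes can show.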

Other observations

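The following gene lists held no gene called by limma-trend or limma-voom, and the median over all tested genes was -0.02, with 17.6% of genes above and 18.9% below. Mitochondrial ribosomal proteins had a median difference of 0.12, with 12 of 61 genes above and 10 below. Nuclear genes of oxidative phosphorylation had 6 of 41 above and 7 below (median 0.02), and glycolysis genes 2 of 23 above and 4 below (median -0.04). Aminoacyl-tRNA synthetases, which charge tRNAs, had 3 of 19 above and 1 below (median 0.12). Proteasome genes had 3 of 32 above and 10 below, and lysosome genes 4 of 33 above and 10 below, with medians of -0.03 and -0.08. RNA polymerase I subunits and factors had the lowest median of these, -0.28, with 1 of 16 above and 2 below, and it differed between the KO clones, at -0.44 in clone 66 and -0.15 in clone 69 against the WT mean.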
